A study of Mus musculus with 44 samples.

Results

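The germline genes *Sycp1*, *Sycp3*, *Hormad1*, *Mael*, *Tdrd1*, *Ddx4*, *Dazl*, *Stk31* and *Slc25a31* were examined for CTCF binding in mouse embryonic stem cells (ESCs), cells in which genes of this class are normally silent. They are 9 of the 21938 protein-coding genes of the annotation and were chosen by name. A peak was assigned to a gene when its summit lay in the gene or within 30 kb of it (mm10). This gave 25 of the 59698 peaks of *Setdb1* KO ESCs and 15 of the 44241 peaks of WT ESCs. CTCF was mapped by chromatin immunoprecipitation sequencing (ChIP-seq) in ESCs of the TT2 strain (C57BL/6/CBA F1). *Setdb1* KO ESCs are conditional KO cells given 800 nM 4-hydroxytamoxifen (4-OHT), the drug that induces the deletion, over 4 days, and they were harvested on day 6. They were set against WT ESCs, for which no 4-OHT treatment is given. Peak lists hold no expression, so that the cell type, the loss of *Setdb1* and the silence of the genes could not be checked in these data. With 1 library per condition analysed, no replicate error and no test between conditions can be given, and every interval covers counting error only.

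Genes of meiosis and of the piRNA pathway are used in germ cells and kept off in ESCs and somatic tissues. Their promoters are often rich in CpG and carry DNA methylation, and a variant Polycomb complex with MGA, MAX and E2F6 binds many of them in ESCs, through E-boxes (the MGA and MAX site) and E2F motifs. SETDB1 is a histone methyltransferase that deposits H3K9me3 and takes part in the silencing of a subset of them. CTCF is a zinc finger protein that marks insulators and chromatin loop anchors, and methylation of CpG within its motif can block its binding.

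To show the E-boxes of these 9 genes, the stretch around each E-box (CACGTG, which reads the same on both strands) is given below for the promoters that hold one. E-boxes of other germline genes were not counted as a class. Each promoter is the RefSeq window (GRCm38.p6, the build of mm10) of 250 bases before to 50 bases after the start site, and the window nearest to the start site used here was taken for each of the 9 genes. The sequences run 5′ to 3′ on the gene's strand, with 20 bases on either side, and the capitals mark the E-boxes.
Sycp1 promoter, chr3:102936169-102936214, minus strand: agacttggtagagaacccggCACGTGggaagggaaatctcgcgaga
Sycp3 promoter, chr10:88459503-88459569, plus strand: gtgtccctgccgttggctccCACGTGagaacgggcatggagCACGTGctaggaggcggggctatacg
Hormad1 promoter, chr3:95559600-95559682, plus strand: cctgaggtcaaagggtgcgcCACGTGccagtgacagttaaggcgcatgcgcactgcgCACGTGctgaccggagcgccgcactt
Mael promoter, chr1:166238942-166238987, minus strand: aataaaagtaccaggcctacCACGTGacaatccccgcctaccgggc
Tdrd1 promoter, chr19:56826178-56826223, plus strand: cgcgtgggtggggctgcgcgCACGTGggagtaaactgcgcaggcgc
Ddx4 promoter, chr13:112652314-112652359, minus strand: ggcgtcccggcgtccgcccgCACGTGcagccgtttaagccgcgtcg
Stk31 promoter, chr6:49395464-49395509, plus strand: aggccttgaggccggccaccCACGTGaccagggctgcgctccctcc
Slc25a31 promoter, chr3:40708758-40708803, plus strand: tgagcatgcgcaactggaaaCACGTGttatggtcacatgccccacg

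An E-box was found in the promoters of 8 of the 9 genes, *Dazl* being the exception, against 7.15% of all 32851 RefSeq promoters. The members' promoters hold between 15 and 38 CpG (median 24), against a median of 7 over all promoters. Among the 11378 promoters with at least 15 CpG, 11.3% hold an E-box. *Sycp3* and *Hormad1* each hold 2 E-boxes. Those of *Tdrd1* and *Ddx4* begin 11 bp and 29 bp before the RefSeq start site, and that of *Mael* is the farthest out, at 223 bp. The E2F motif TTCCCGC, searched on both strands and with no overlap with the E-box, was found in the promoters of *Sycp3*, *Hormad1*, *Ddx4* and *Slc25a31*. It occurs in 4.60% of all promoters and in 10.3% of those with at least 15 CpG. These matches describe letters in the reference genome and not binding.

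**Figure D1:**
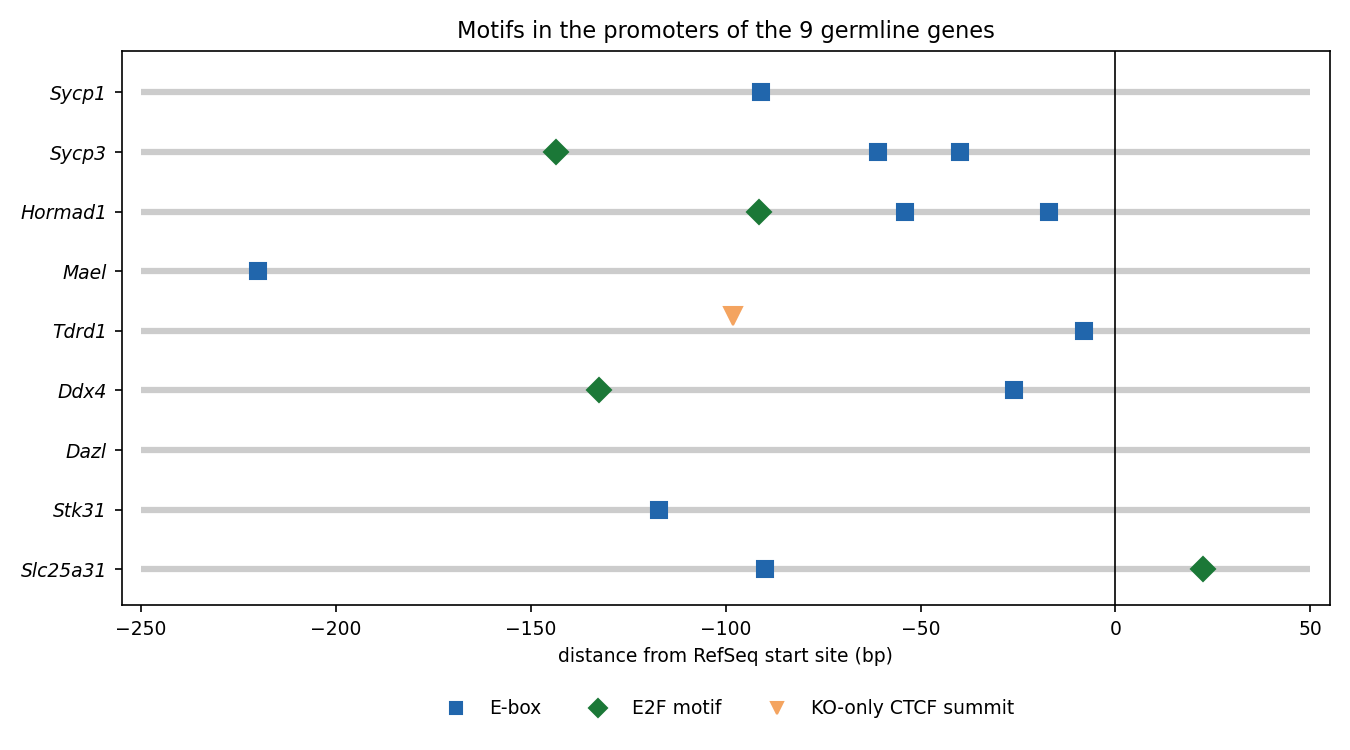
Positions of E-boxes (squares) and E2F motifs (diamonds) in the RefSeq promoters of the 9 genes, in bp from the start site (vertical line), with CTCF summits in the window as triangles. 8 promoters hold an E-box, and the KO-only summit of *Tdrd1*, at 98 bp before the start site, is the only CTCF summit of either list that falls within one of these 9 windows.

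Around the 9 genes, 15 sites had a peak in both lists, 10 peaks were found in *Setdb1* KO alone (KO-only, with no WT peak overlapping by at least 1 bp) and none in WT alone (WT-only). KO-only peaks made up 40% of the 25 *Setdb1* KO peaks (Wilson 95% interval 23.4 to 59.3%), against 28.8% of the whole *Setdb1* KO list, a value within that interval. With both lists held to the same length, the top 44241 peaks by −log10 q, 3 KO-only peaks were left (17.6%, against 11.7% of the whole *Setdb1* KO list at that length). For WT-only peaks, 0 of 15 allows a share of up to 20%, against 3.22% of the whole WT list. KO-only peaks lay around 6 genes, namely *Sycp1*, *Hormad1*, *Mael*, *Tdrd1*, *Dazl* and *Stk31*. Of all protein-coding genes, 60% have a KO-only peak within the same window, so that 6 of 9 is near the background. The members have a median length of 37.5 kb, against 17.4 kb over all protein-coding genes, so that their windows are wider. The part of gene length in this count was not tested. *Sycp3* and *Slc25a31* had no peak in either list, as did 13% of protein-coding genes.

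The strength of binding was taken as the pileup, the number of fragments covering the summit, which was solved from the deposited fold enrichment (pileup over background, each with 1 added) and p-value of each peak. In a bulk assay, binding in more cells and stronger binding per cell cannot be told apart. Summed over the 15 shared sites, it was 582 fragments in *Setdb1* KO and 427 fragments in WT, a ratio of 1.36 (exact Clopper-Pearson 95% interval 1.20 to 1.55). The median pileup of these sites was 39 fragments in *Setdb1* KO and 26 fragments in WT. The median ratio per site was 1.35 (quartiles 1.17 and 1.71), and over all 41876 sites that pair 1 peak of each list it was 1.36 (quartiles 1.17 and 1.61). The pileup was higher in *Setdb1* KO at 13 of the 15 sites. Most paired sites of the whole list were higher too, as their lower quartile of 1.17 is above 1. The counting interval of the ratio lay above 1 at 5 of the 15 sites, and the share of all paired sites with such an interval was not counted. The ratio was at least 1.5 at 6 sites, against 35% of all paired sites. At none of the 15 sites did the interval exclude the genome-wide median of 1.36, so that at this depth no shared site was distinguishable from the list as a whole. Depth was estimated from the lowest solved background, a fragment length inferred from the backgrounds and the genome size set in the authors' peak calling. This gave 27.6 M tags in *Setdb1* KO and 27.4 M tags in WT, which are estimates and not reported depths.

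KO-only peaks were low. Their pileups ran from 15 to 29 fragments in *Setdb1* KO, with a median of 19, and KO-only peaks of the whole list have a median of 18. Divided by the genome-wide ratio of 1.36, they correspond to 11.0 to 21.3 fragments. With the background unchanged, 9 of the 10 then still passed the lowest −log10 p of the *Setdb1* KO list, 3.30. They lay around the same 6 genes and made up 37.5% of the *Setdb1* KO peaks kept there, against 27.3% of the whole list so scaled. The lowest pileup in the WT list is 9 fragments and its 5th percentile is 15, and the coverage in WT at the KO-only sites is not known from a peak list.

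**Figure D2:**
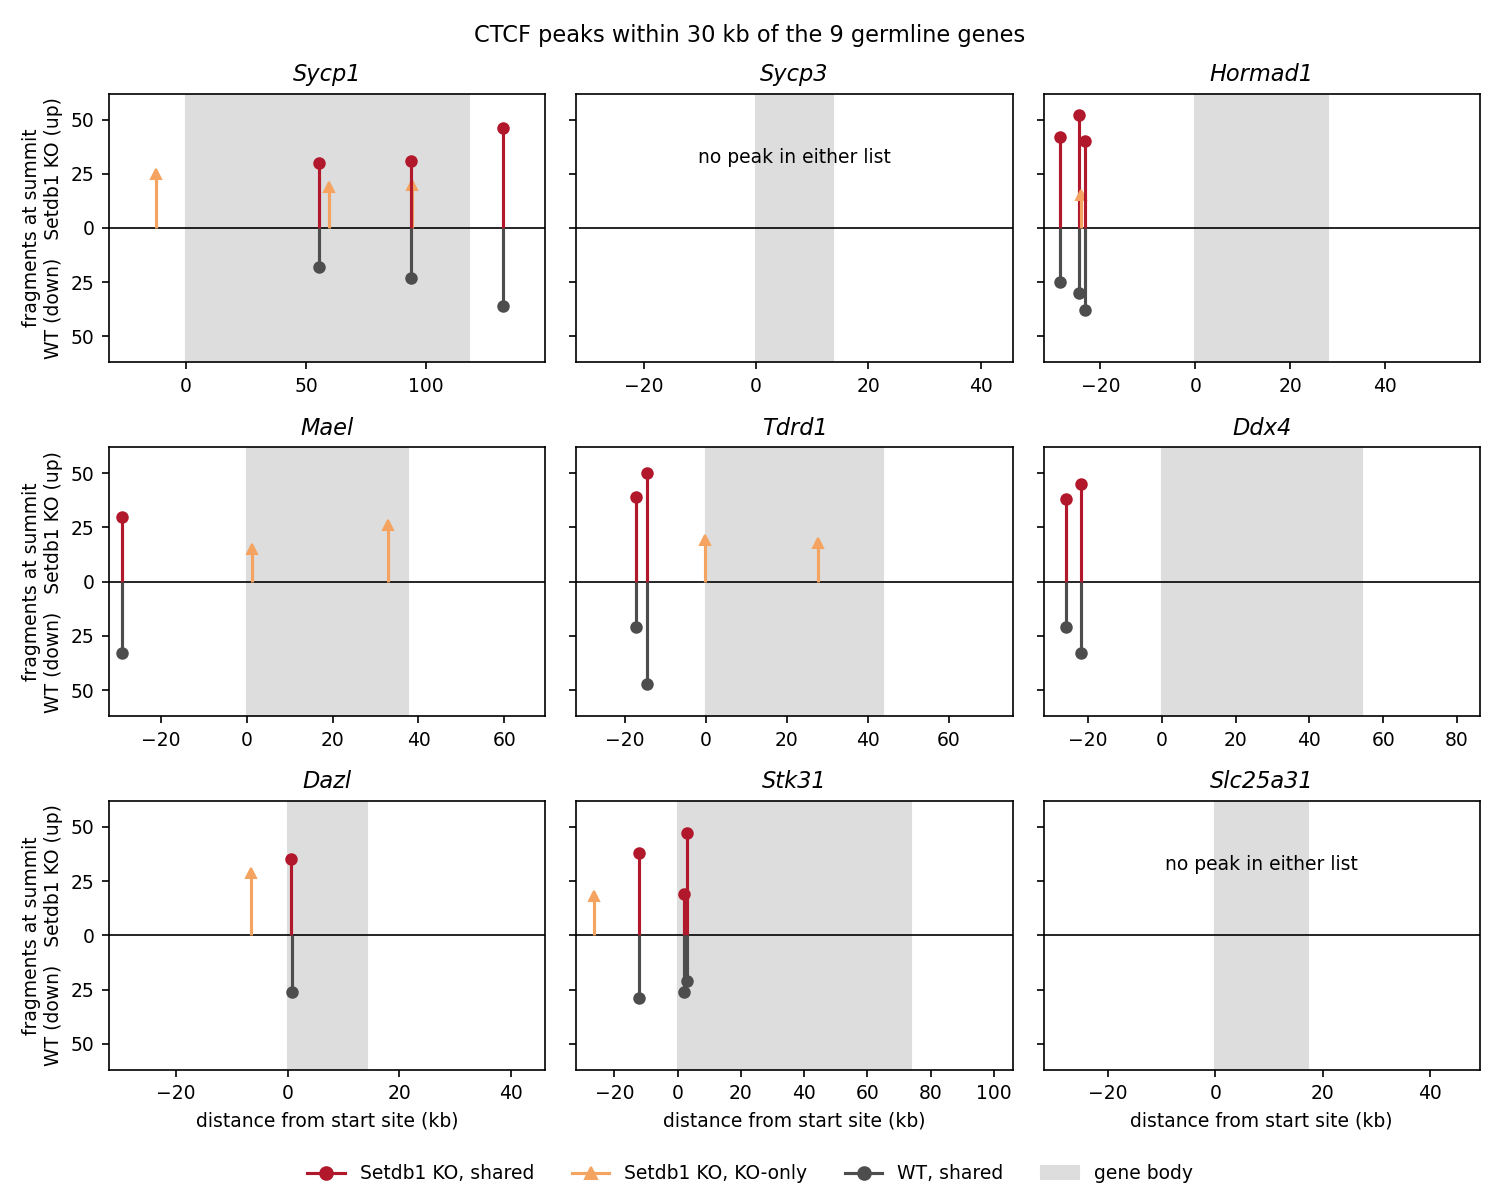
CTCF peaks in the windows of the 9 genes by distance of the summit from the start site (kb, in the direction of transcription), with the pileup at the summit (fragments) in *Setdb1* KO upward and in WT downward. Triangles are KO-only peaks and grey marks the gene body. Shared sites lie outside the gene in *Hormad1*, *Mael*, *Tdrd1* and *Ddx4*, and *Sycp3* and *Slc25a31* have no peak.

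Among the genes of the synaptonemal complex and chromosome axis, *Sycp1* (chr3:102818499-102936100, minus strand) encodes the transverse filament that joins homologous chromosomes in meiosis. At 117.6 kb it is the longest member and had 6 *Setdb1* KO peaks and 3 WT peaks. The 3 shared sites had 46, 31 and 30 fragments in *Setdb1* KO, against 36, 23 and 18 fragments in WT. All were higher in *Setdb1* KO, the ratio of the sums was 1.39 (95% interval 1.03 to 1.89), and no single interval excluded 1. The strongest, chr3:102803944-102804274, lies beyond the 3′ end of the gene in intergenic sequence, and the other two lie within the gene. Of these, the site 55.4 kb from the start is also within 1 kb of the processed pseudogene *Gm33866*. At the other, 93.6 kb from the start, the input background was 1.68 times as high in *Setdb1* KO as in WT. Fold enrichment there was 6.58 in *Setdb1* KO and 7.26 in WT, and the part of the input was not tested.

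The 3 KO-only peaks of *Sycp1* had 25, 20 and 19 fragments in *Setdb1* KO and fold enrichments of 6.88, 5.04 and 5.45. The highest, chr3:102948438-102948698, is 12.5 kb upstream of the start site, in an intron of *Nr1h5*, which encodes a nuclear receptor. All 101 bases around its summit are repeat-masked and hold 5 CpG. The 2 others, chr3:102841747-102841991 and chr3:102876544-102876786, are intronic in *Sycp1*.

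*Hormad1* (chr3:95559677-95587671, plus strand) encodes a HORMA domain protein of the unsynapsed chromosome axis. None of its peaks lay in the gene. All 4 fell 23.2 to 28.4 kb upstream, within *Ctss*, which encodes the lysosomal protease cathepsin S. The shared sites had 42, 52 and 40 fragments in *Setdb1* KO, against 25, 30 and 38 fragments in WT. The first and second had ratios of 1.68 (1.00 to 2.88) and 1.73 (1.09 to 2.81), with intervals above 1, the first only just. The last had a ratio of 1.05 (0.658 to 1.69), and its interval overlapped those of the others. At the first site the input background was 1.40 times as high in *Setdb1* KO as in WT, and its part in the ratio was not tested. This first site is also within 1 kb of the processed pseudogene *Hmgb1-ps5*, which lies inside *Ctss*, and the others are intronic in *Ctss*. Between the second and the last shared site lay a KO-only peak of 15 fragments in *Setdb1* KO, chr3:95535477-95535718, with a fold enrichment of 4.57.

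*Sycp3* (chr10:88459569-88473236, plus strand), which encodes an axial element protein, had no peak within 30 kb. The nearest site on its left is 33.0 kb away and had 88 fragments in *Setdb1* KO and 61 fragments in WT. The nearest on its right, at 40.7 kb, had 20 fragments in *Setdb1* KO and 15 fragments in WT. The gene sits in a stretch without CTCF peaks in both conditions.

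Of the piRNA pathway genes, *Tdrd1* (chr19:56826209-56870012, plus strand) encodes a Tudor domain protein that binds PIWI proteins in germ granules. It was the single member with a KO-only summit within 1 kb of its start site, as had 4.46% of protein-coding genes. This peak, chr19:56825997-56826249, had 19 fragments in *Setdb1* KO and a fold enrichment of 5.02, with its summit 98 bp upstream of the start site. No sequence around the summit was repeat-masked, and no CTCF motif was found there. The E-box of this promoter lies inside the peak, between the summit and the start site. Because the peak covers most of the promoter, the RefSeq window is given whole, with the E-box in capitals (chr19:56825959-56826258, plus strand).
Tdrd1 promoter: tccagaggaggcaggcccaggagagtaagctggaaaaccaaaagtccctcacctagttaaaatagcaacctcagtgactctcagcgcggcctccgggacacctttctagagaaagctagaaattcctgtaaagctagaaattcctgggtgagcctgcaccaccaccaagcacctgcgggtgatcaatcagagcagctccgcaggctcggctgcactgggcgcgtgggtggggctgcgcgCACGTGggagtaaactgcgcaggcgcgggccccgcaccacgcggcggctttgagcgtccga

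The other KO-only peak of *Tdrd1*, chr19:56853810-56854040, had 18 fragments in *Setdb1* KO and a fold enrichment of 3.91, 27.7 kb into the gene in an intron. Its 2 shared sites lie upstream, in introns of *Ccdc186*, which encodes a coiled-coil protein. The site at 17.2 kb had 39 fragments in *Setdb1* KO and 21 fragments in WT, a ratio of 1.86 (1.07 to 3.32). The site at 14.5 kb had 50 fragments in *Setdb1* KO and 47 fragments in WT, a ratio of 1.06 (0.700 to 1.62), and there the input background was 1.91 times as high in *Setdb1* KO as in WT. Fold enrichment at this site was 6.57 in *Setdb1* KO and 10.6 in WT, and the part of the input was not tested. The interval of the first site lay above 1 and that of the second, nearer to *Tdrd1*, included 1. These intervals overlap and both include the genome-wide median of 1.36, so that no difference between the sites is shown.

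*Mael* (chr1:166201201-166238747, minus strand) encodes Maelstrom, a piRNA factor that represses transposons in the male germline. It had 3 *Setdb1* KO peaks and 1 WT peak. The shared site, chr1:166267607-166267918, is 29.0 kb upstream in an intron of *Ildr2* and had 30 fragments in *Setdb1* KO and 33 fragments in WT. Its ratio of 0.909 (0.536 to 1.54) was one of 2 below 1 and did not differ from 1 beyond counting error. Both peaks inside the gene were KO-only and intronic. The one nearer to the 3′ end, chr1:166205561-166205902, had 26 fragments and a fold enrichment of 6.78 in *Setdb1* KO. The other, chr1:166237449-166237661, lay 1.28 kb downstream of the start site with 15 fragments and a fold enrichment of 2.74. It has the lowest fold enrichment of the 25 peaks and is 85.1% repeat-masked around its summit.

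*Ddx4* (chr13:112598333-112652475, minus strand) encodes the mouse VASA homologue, an RNA helicase of germ granules. It had no KO-only peak and no peak in its body. Both shared sites are upstream in introns of *Slc38a9*, which encodes a lysosomal amino acid transporter and sensor. The site at 21.7 kb had 45 fragments in *Setdb1* KO and 33 fragments in WT, a ratio of 1.36 (0.851 to 2.21). Its input background was 1.69 times as high in *Setdb1* KO as in WT. Its fold enrichment was 9.46 in *Setdb1* KO and 10.3 in WT, and the part of the input was not tested. The site at 25.9 kb had 38 fragments in *Setdb1* KO and 21 fragments in WT, a ratio of 1.81 (1.04 to 3.25). The ratio of the sums, 1.54 (1.08 to 2.21), was the highest of the 7 genes with shared sites, and its interval overlapped those of the other six.

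*Dazl* (chr17:50279395-50293636, minus strand) encodes an RNA-binding protein required for germ cell development. It was the single member with a shared site at its own promoter. This site, chr17:50292780-50293131, had 35 fragments in *Setdb1* KO and 26 fragments in WT, a ratio of 1.35 (0.787 to 2.33), which did not differ from 1 beyond counting error. It lies 0.684 kb downstream of the outermost start site and 0.06 kb from another annotated start of *Dazl*. The 101 bases around its summit hold 17 CpG with a GC content of 82.2%, the highest of the 25 peaks, against a median of 1 CpG over all *Setdb1* KO peaks. They are given because CTCF was bound there in both conditions at a CpG-dense site (chr17:50292902-50293002, plus strand, with the core of the CTCF motif in capitals).
Dazl +0.7 kb: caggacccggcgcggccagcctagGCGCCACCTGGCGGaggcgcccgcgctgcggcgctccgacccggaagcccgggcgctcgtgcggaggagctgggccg

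The KO-only peak of *Dazl*, chr17:50300016-50300331, is 6.54 kb upstream in intergenic sequence. With 29 fragments in *Setdb1* KO and a fold enrichment of 9.41, it was the strongest KO-only peak of the 10. No CTCF motif was found within 50 bp of its summit. Its 101 bases are given with the 2 CpG in capitals (chr17:50300130-50300230, plus strand).
Dazl -6.5 kb: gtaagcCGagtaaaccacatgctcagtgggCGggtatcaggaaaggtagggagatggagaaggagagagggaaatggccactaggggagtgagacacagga

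*Stk31* (chr6:49395604-49469501, plus strand) encodes a Tudor domain protein with a kinase-like domain. It had 4 *Setdb1* KO peaks and 3 WT peaks. The pair of shared sites in its introns went opposite ways. At 2.95 kb from the start site, chr6:49398376-49398847 had 47 fragments in *Setdb1* KO and 21 fragments in WT, a ratio of 2.24 (1.31 to 3.94), the highest of the 15. At 2.09 kb, chr6:49397534-49397766 had 19 fragments in *Setdb1* KO and 26 fragments in WT, a ratio of 0.731 (0.382 to 1.37), the lowest of the 15. The first ratio exceeded 1 by more than counting error and the second did not fall below it by more. Their intervals overlap.

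The remaining shared site of *Stk31*, 12.2 kb upstream in an intron of *Fam221a*, had 38 fragments in *Setdb1* KO and 29 fragments in WT, a ratio of 1.31 (0.787 to 2.20). Its input background in *Setdb1* KO was 0.506 times that in WT, the lowest of the 15 sites, and its part in the ratio was not tested. The KO-only peak, chr6:49368969-49369215, had 18 fragments in *Setdb1* KO and a fold enrichment of 5.55, 26.5 kb upstream in *Fam221a*. It is wholly repeat-masked around its summit.

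*Slc25a31* (chr3:40708855-40726096, plus strand) encodes a testis ADP/ATP carrier of the mitochondrial inner membrane. It had no peak within 30 kb. Just beyond this limit, at 31.7 kb on its left, a KO-only peak had 22 fragments in *Setdb1* KO and a fold enrichment of 4.73. The nearest WT peak on that side is 183 kb away. On its right, a shared site at 68.0 kb had 28 fragments in *Setdb1* KO and 19 fragments in WT.

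**Figure D3:**
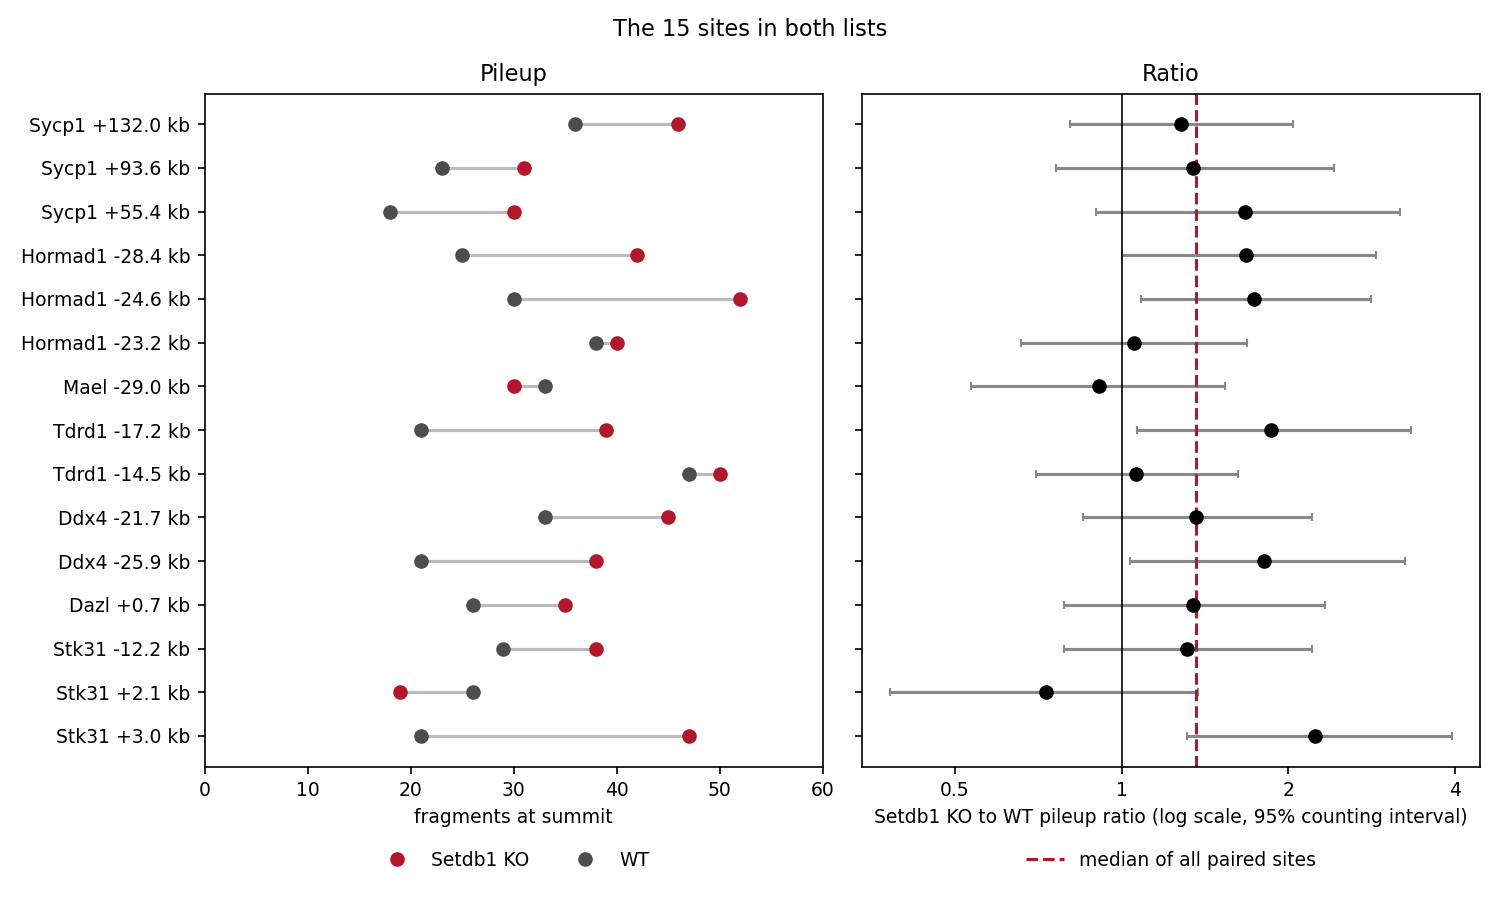
Left, fragments at the summit of the 15 shared sites in *Setdb1* KO (red) and WT (grey). Right, the *Setdb1* KO to WT ratio on a log scale with its exact 95% counting interval, the solid line at 1 and the dashed line at the median of all paired sites, 1.36. Every interval includes the dashed line, and the sites of *Stk31* hold both the highest ratio, 2.24, and the lowest, 0.731.

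Measured from the start sites, the members' median distances to CTCF lay within the quartiles of all protein-coding genes. The nearest *Setdb1* KO summit was at a median of 12.5 kb (range 0.098 to 33.0 kb), against 8.10 kb (quartiles 2.245 and 22.3 kb) over 21851 protein-coding genes. The nearest WT summit was at a median of 23.3 kb (0.724 to 85.4 kb), against 11.5 kb (3.42 and 32.4 kb) over these genes. The nearest KO-only summit was at a median of 24.1 kb, against 32.4 kb over these genes. For 4 genes the nearest *Setdb1* KO summit was a KO-only one, and the share of all protein-coding genes with this was not counted. KO-only peaks make up 28.8% of the whole *Setdb1* KO list. *Tdrd1* had its nearest summit at 0.098 kb in *Setdb1* KO, against 14.5 kb in WT, and *Mael* at 1.28 kb in *Setdb1* KO, against 29.0 kb in WT. *Sycp1* had it at 12.5 kb in *Setdb1* KO, against 55.4 kb in WT, and *Slc25a31* at 31.7 kb in *Setdb1* KO, against 85.4 kb in WT. For *Sycp3*, *Hormad1*, *Ddx4*, *Dazl* and *Stk31* the nearest summits of both lists belonged to the same shared site. A *Setdb1* KO summit within 1 kb of the start site was found for *Tdrd1* and *Dazl*, 2 of 9 members, against 15.9% of protein-coding genes.

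By place, 19 of the 25 *Setdb1* KO peaks were intronic, 4 lay within 1 kb of an annotated start site, 2 were intergenic and none was exonic. The shares of these places over the whole *Setdb1* KO list were not counted, and the windows are centred on genes. Of the 25, 10 lay inside a member gene. The rest were in neighbouring genes or between genes, so that a window of 30 kb describes the surroundings of the members more than the members themselves. More than 50% of the sequence around the summit was repeat-masked at 5 of 10 KO-only peaks and 5 of 15 shared sites, against 41.4% and 24.7% in the whole *Setdb1* KO list.

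Searched up to 50 bp on either side of the summit, the CTCF motif was present in 2 of 10 KO-only peaks (20%, Wilson 5.67 to 51.0%) and in 9 of 15 shared sites (60%, 35.7 to 80.2%), against 36.0% and 64.7% in the whole *Setdb1* KO list. The motifs are shown so that the sites bound in both conditions can be set beside the KO-only ones. Each is given 5′ to 3′ on the motif's strand with 10 bases on either side, the 14 bases of the core in capitals (GRCm38), and the name gives the gene and the summit's distance from its start site. The 9 shared sites come first and the 2 KO-only peaks of *Sycp1* and *Hormad1* last.
Sycp1 +132.0 kb, chr3:102804107-102804140, minus strand: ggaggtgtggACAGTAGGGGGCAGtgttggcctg
Hormad1 -24.6 kb, chr3:95535084-95535117, plus strand: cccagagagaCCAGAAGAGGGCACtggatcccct
Mael -29.0 kb, chr1:166267780-166267813, minus strand: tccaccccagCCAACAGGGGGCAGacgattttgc
Tdrd1 -17.2 kb, chr19:56808940-56808973, plus strand: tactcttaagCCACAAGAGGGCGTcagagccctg
Tdrd1 -14.5 kb, chr19:56811679-56811712, minus strand: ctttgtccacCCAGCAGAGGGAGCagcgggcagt
Ddx4 -21.7 kb, chr13:112674205-112674238, plus strand: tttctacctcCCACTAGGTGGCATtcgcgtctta
Ddx4 -25.9 kb, chr13:112678339-112678372, minus strand: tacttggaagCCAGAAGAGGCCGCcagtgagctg
Dazl +0.7 kb, chr17:50292916-50292949, minus strand: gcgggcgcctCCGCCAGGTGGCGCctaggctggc
Stk31 +3.0 kb, chr6:49398539-49398572, minus strand: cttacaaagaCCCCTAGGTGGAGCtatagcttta
Sycp1 -12.5 kb, chr3:102948567-102948600, minus strand: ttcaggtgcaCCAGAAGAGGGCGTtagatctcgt
Hormad1 -24.1 kb, chr3:95535539-95535572, plus strand: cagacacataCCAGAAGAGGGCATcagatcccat

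The 2 KO-only cores and that of the shared site of *Hormad1* at 24.6 kb open with the same 12 bases, CCAGAAGAGGGC. This opening was found in 47.6% of the cores of all KO-only *Setdb1* KO peaks with a motif and in 20.4% of those of shared ones. CpG at position 12 of the core (counted from its 5′ end) was present in 4 of the 11 cores, against 29.0% of KO-only and 38.0% of shared cores in the whole list. CpG at position 2 was present in 1, the core of the *Dazl* promoter site, which holds CpG at both positions, against 1.07% of KO-only and 4.74% of shared cores. With 11 cores, these shares carry a wide counting error.

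The wider class was close to the background. Of 62 further germline genes measured (of 64 listed), 38 had a KO-only peak within 30 kb (61.3%, Wilson 48.8 to 72.4%), close to the 60% of all protein-coding genes, and 81 of the 302 peaks of *Setdb1* KO in their windows had no WT counterpart (26.8%). These genes have a median length of 33.5 kb, against 17.4 kb over all protein-coding genes, and the part of length in the counts was not tested. The median over genes of the median ratio was 1.40, against 1.35 over all protein-coding genes. The genes with the most KO-only peaks were *Tex14*, a component of germ cell intercellular bridges, and *Dmc1*, the meiotic recombinase, with 6 each, then *Brdt*, a testis bromodomain protein, with 5, and *Prdm9*, the methyltransferase that places recombination hotspots, and *Tex15*, a testis-expressed gene, with 4 each. *Dmc1* had 7 peaks in *Setdb1* KO and 1 in WT. The KO-only peaks with the highest fold enrichment were those of *Dpep3* at 23.7, 76 bp upstream of its start site, *Prdm9* at 11.3, *Spo11*, the enzyme that makes meiotic double-strand breaks, at 10.9, and *Ythdc2*, an RNA helicase of meiotic entry, at 10.7. The peak of *Dpep3* had 97 fragments in *Setdb1* KO, against at most 29 fragments at the KO-only peaks of the 9 members.

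Of the 14 genes for subunits of the Polycomb complex that binds germline promoters in ESCs, 13 had a KO-only peak within 30 kb (92.9%, 68.5 to 98.7%), and of the 69 peaks of *Setdb1* KO in their windows 25 had no WT counterpart (36.2%). Over all protein-coding genes, 60% had a KO-only peak and 27.3% of the peaks in their windows were KO-only. The subunit genes also had more peaks per window, with a median of 5.5 in *Setdb1* KO, against 4 over all protein-coding genes, and were longer, with a median of 26.98 kb, against 17.4 kb. The part of gene length in this count was not tested. *Cbx3*, which encodes the heterochromatin protein HP1 gamma, had 4 of them, and 9 genes had 2 each, among them *Mga*, *Yaf2* and *Tfdp1*, which had the highest fold enrichments of these 9. The highest fold enrichments were 8.98 for *Rnf2*, 8.61 for *Cbx3*, 8.16 for *Max* and 7.60 for *Mga*. The peak of *Mga*, with 27 fragments in *Setdb1* KO, is in its own intron, and those of *Cbx3* and *Max* lie between genes and in an intron of *Gm35041*. That of *Rnf2* lies in an intron of *Trmt1l*, 51.6 kb from the *Rnf2* start site. The median over genes of the median ratio was 1.30, against 1.35 over all protein-coding genes.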

How the data were processed

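CTCF ChIP-seq in *Setdb1* KO and WT ESCs was analysed from 1 deposited peak list per condition. The authors used Bowtie 1.2 for alignment to mm10 (GRCm38), Picard for removing duplicates and MACS2 2.1.0, with input as control and a q threshold of 0.05, for peak calling. The deposited values are the fold enrichment (a ratio), p and q as −log10 values, a score made from q and the summit's offset in bp. Since reads mapping to several places were dropped, peaks in repeats can be missed. The second libraries were not analysed here.

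From these, the pileup and background were solved for each peak (tolerance 0.001 on −log10 p, 100% of peaks). Fragments at 1 summit are not replicates. Peaks overlapping by 1 bp were shared. Places came from GENCODE vM21, with 1 kb around a start site as promoter, and sequences from RefSeq GRCm38.p6. The CTCF motif is a matrix learned from 1000 shared peaks of *Setdb1* KO (highest −log10 q), scored up to 50 bp from each summit and called where it exceeded the 99th percentile of windows 1 kb away. On simulated data, the solving, overlap and motif steps were tested. The tools were pysam 0.24.0, scipy 1.17.1, numpy 2.4.6, pandas 2.3.3 and matplotlib 3.10.9 under Python 3.11.15.

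All 9 genes and all their peaks were named, neighbours where a peak lay in or within 1 kb of them, and, of the further germline genes and the Polycomb subunits, 4 genes each by number of KO-only peaks and 4 by their highest fold enrichment. *Tex15* was added for its tie with *Prdm9* after its values were seen. The members and lists were chosen with earlier results of these data known. For the counts and ratios of the 9 genes, 11 alternatives of overlap, threshold, list length, window, scaling and gene assignment were tried. The motif share had 5 and each of the other gene lists 4, without scaling or gene assignment.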

Additional observations from a re-analysis of the deposited data

How the results depend on the processing

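With lists of equal length (the top 44241 of each by −log10 q), 3 KO-only peaks remained around 3 of the 9 genes, those of *Dazl* at 6.54 kb and *Sycp1* at 12.5 kb upstream and of *Mael* at 33.0 kb (17.6% of *Setdb1* KO peaks there, against 11.7% of the whole list at that length), and 1 peak of *Stk31* became WT-only. Of the whole WT list, 10.9% was WT-only at that length. The further germline genes then had 25 KO-only peaks, against 81 in the main count, and the Polycomb subunits 7, against 25. For these gene lists, and for other windows and gene assignments, no share over all genes was computed under the alternatives. Counting gene bodies alone gave 5 KO-only peaks in 3 genes, and leaving out peaks nearer to another gene's start site gave 5 in 4 genes. A window of 10 kb gave 45 KO-only peaks for the further germline genes, 15 for the Polycomb subunits and a motif in 16.7% of the members' peaks. WT-only peaks numbered 2 with a reciprocal overlap of 50% and 1 at a fold enrichment of at least 5. In the whole WT list, 11.1% and 3.88% of peaks were WT-only under these settings. A motif threshold at the 95th percentile gave 64%.

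After division of *Setdb1* KO pileups by the genome-wide ratio, which sets the median of all paired sites to 1, the median ratio of the members' shared sites was 0.991. Under the other alternatives the median ratio lay between 1.25 and 1.36. No paired analysis was possible because 1 library per condition was analysed. The depth leaves wide intervals at single sites, such as 1.31 to 3.94 for the highest ratio, that of *Stk31*.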
